A study of Mus musculus with 6 samples.

Results

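Mitochondrial fatty acid oxidation was followed through 32 genes, chosen as a list of the pathway's enzymes and carriers. The list holds the synthetases that activate fatty acids, the carnitine shuttle, the acyl-CoA dehydrogenases, the enzymes of the later steps of the spiral, the electron-transferring flavoproteins and the acyl-CoA thioesterases. All 32 genes had reads, out of 8129 genes with reads in the 6 libraries, and 24 of them had enough reads to be tested among 2093 tested genes. Messenger RNA came from interscapular brown fat of male C57BL/6N mice aged 20 weeks. The cold group was 3 mice (numbers 4, 11 and 15), each held singly at 4 °C for 24 h, and the control group was 3 mice (numbers 2, 9 and 14) for which the general husbandry text gives 22 to 24 °C. The description of the cold stands on the records of every sample, so the groups rest on the titles and the treatment tag. Whether the control mice were also held singly is not known, so single housing and cold cannot be told apart. The extraction text speaks of eWAT, a white depot, but the depot named on the tissue label, brown, was followed. Capped, full-length cDNA was amplified by PCR and read on nanopore flow cells, with no molecular identifiers to tell PCR copies apart.

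Brown fat burns fatty acids to make heat. A fatty acid is first joined to coenzyme A by a synthetase, passed across the inner mitochondrial membrane as a carnitine ester, and then shortened by repeated rounds of dehydrogenation, hydration, a further dehydrogenation and thiolytic cleavage. The electrons of the first dehydrogenation leave through the electron transfer flavoprotein and its ubiquinone oxidoreductase. Unsaturated chains need auxiliary isomerases and reductases, and thioesterases can take an acyl-CoA out of the pathway again.

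The cold libraries held 2922939 to 2982630 reads and the control libraries 1014812 to 1849351, so every cold library was deeper than every control library, and depth and group cannot be told apart. A floor of 3 reads was 1.01 to 1.03 CPM (counts scaled to library size) in the cold libraries and 1.62 to 2.96 CPM in the control libraries, which covers counting error only. Reads in cold libraries also fell on longer annotated transcripts, with a mean length of 1529 to 1577 nucleotides (nt) in cold and 1364 to 1506 nt in control libraries. The 10 brown adipocyte markers summed to 49544 to 53319 CPM in cold and 46560 to 55883 CPM in control libraries, mostly from Fabp4. Ucp1 averaged 4129 CPM in cold and 4520 CPM in control libraries, and Cidea 5689 and 5376 CPM, and neither was called. Of the 10, Elovl3, Kcnk3 and Plin5 were called higher and Adipoq and Cox8b lower in the cold. Elovl3, at 3.79 to 9.00 CPM in control libraries, had enough reads to be tested only through the cold libraries, so its call is a description. Skeletal muscle markers, of which 8 of 9 had reads and Myh2 was at 0, summed to 182, 2820 and 12967 CPM in cold libraries 4, 11 and 15, against 122, 540.5 and 946 CPM in control libraries 2, 9 and 14. The 4 white adipocyte markers summed to 166 to 256 CPM in cold and 66.5 to 119 CPM in control libraries, mostly from Retn, at 149.6 to 253 CPM in cold and 66.0 to 117 CPM in control libraries, while Lep had 1 read. Fibroblast markers summed to 11.1 to 22.1 CPM in cold and 7.19 to 17.8 CPM in control libraries, nearly all from Dcn, with Col1a1, Col3a1 and Pdgfra at 0. Macrophage markers summed to 53.0 to 122 CPM in cold and 52.8 to 86.3 CPM in control libraries, nearly all from C1qa, with Cd68, Adgre1 and Csf1r at 0. The 4 erythroid markers, all globin genes, summed to 16325 to 22519 CPM in cold and 14978 to 28127 CPM in control libraries. Endothelial markers summed to 23.8 to 30.5 CPM in cold and 20.6 to 34.9 CPM in control libraries. Schwann cell and lymphocyte markers reached at most 10.3 and 0.671 CPM in any library. The part of these cells in the results was not tested.

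The pathway did not move as a block after 24 h of cold. Transcripts of both listed synthetases, of the muscle-type carnitine palmitoyltransferase and of the dehydrogenase Acad11 rose. So did those of the thioesterase Acot2 and of 2 of 3 electron transfer proteins, and the rises ran from 1.52-fold to 2.58-fold. Transcripts of the thiolase Acaa2, the isomerase Eci1 and the hydroxyacyl-CoA dehydrogenase Hsd17b10 fell, to between 0.54 and 0.65 times the control level. The abundant dehydrogenases Acadvl and Acadl and both subunits of the trifunctional protein had no called change. A gene is called here at an adjusted p under 0.05 in the edgeR quasi-likelihood test with Benjamini-Hochberg adjustment over all 2093 genes. With 1 library left out, the calls of Acad11 and Acot2 were each lost in 5 of 6 cases. Those of Etfa, Eci1 and Hsd17b10 were lost in 4, 3 and 1 of the 6 cases. Since these are whole-tissue libraries, fewer cells of a type and less RNA per cell cannot be told apart.

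Of the 24 tested genes of the list, 7 rose and 3 fell, which is 29.2% higher and 12.5% lower. Over all tested genes 18.1% were called higher and 15.1% lower, 33.2% in all, against 41.7% of the list. The list was chosen with earlier results of these data known, so its shares beside the background are a description only. The median log2 change (cold minus control) was 0.23 over the list and 0.04 over all tested genes. In 9 of the 24 every cold library lay above every control library, and in 5 every cold library lay below, where all tested genes gave 26% and 21.8%. At an unadjusted p under 0.05 there were 13 of the 24, against 44% of all tested genes. All 24 passed the filter on low counts in the control libraries alone. Reads of the 32 genes made up 3.60%, 3.73% and 3.44% of all reads in cold libraries 4, 11 and 15, against 2.86%, 2.96% and 3.46% in control libraries 2, 9 and 14. That share was 3.59% ± 0.142 in cold and 3.09% ± 0.319 in control libraries (SD, n = 3 each), and control library 14 lay within the cold range. The p values measure the spread between these mice.

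**Figure D1:**
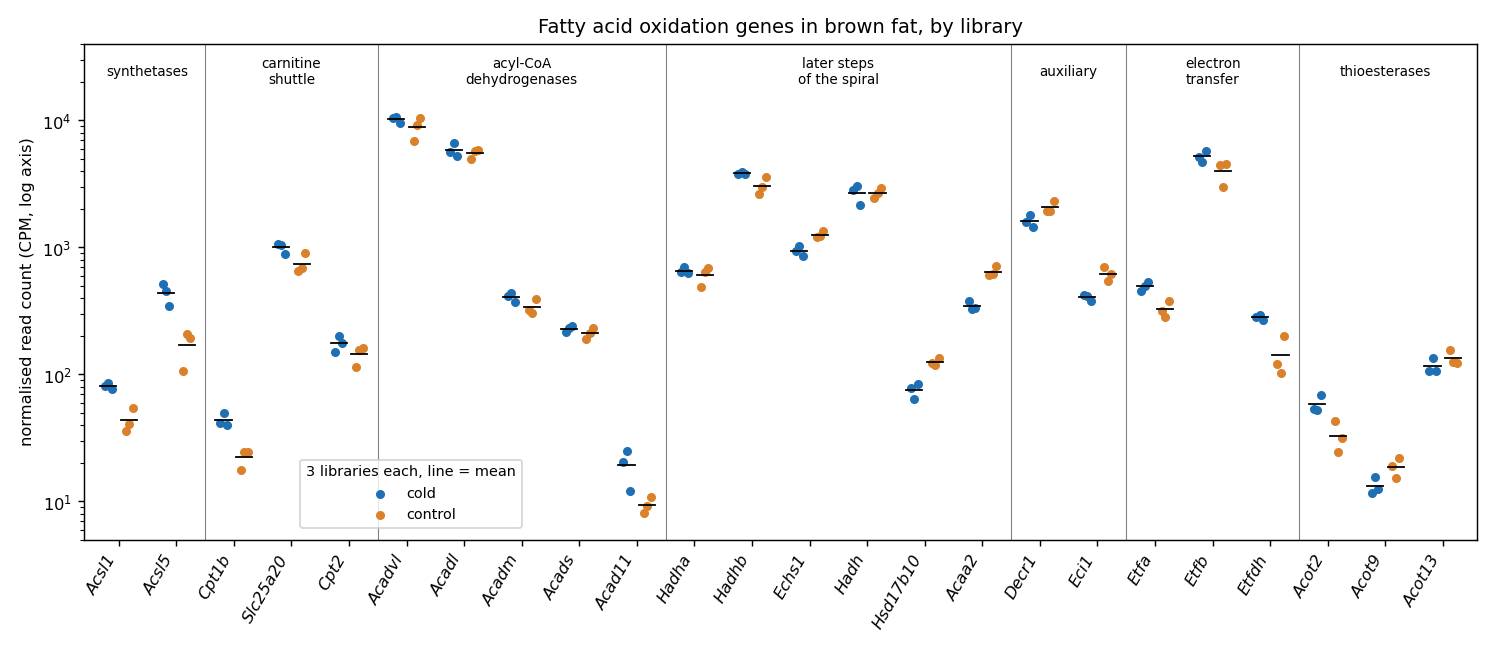
Normalised read count in CPM on a log axis for the 24 tested genes, grouped by role, with 1 point per library, 3 cold and 3 control, and a line at each group's mean. The cold points of both synthetases, Cpt1b, Acad11, Etfa, Etfdh and Acot2 lie above all control points, and those of Hsd17b10, Acaa2 and Eci1 lie below.

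**Figure D2:**
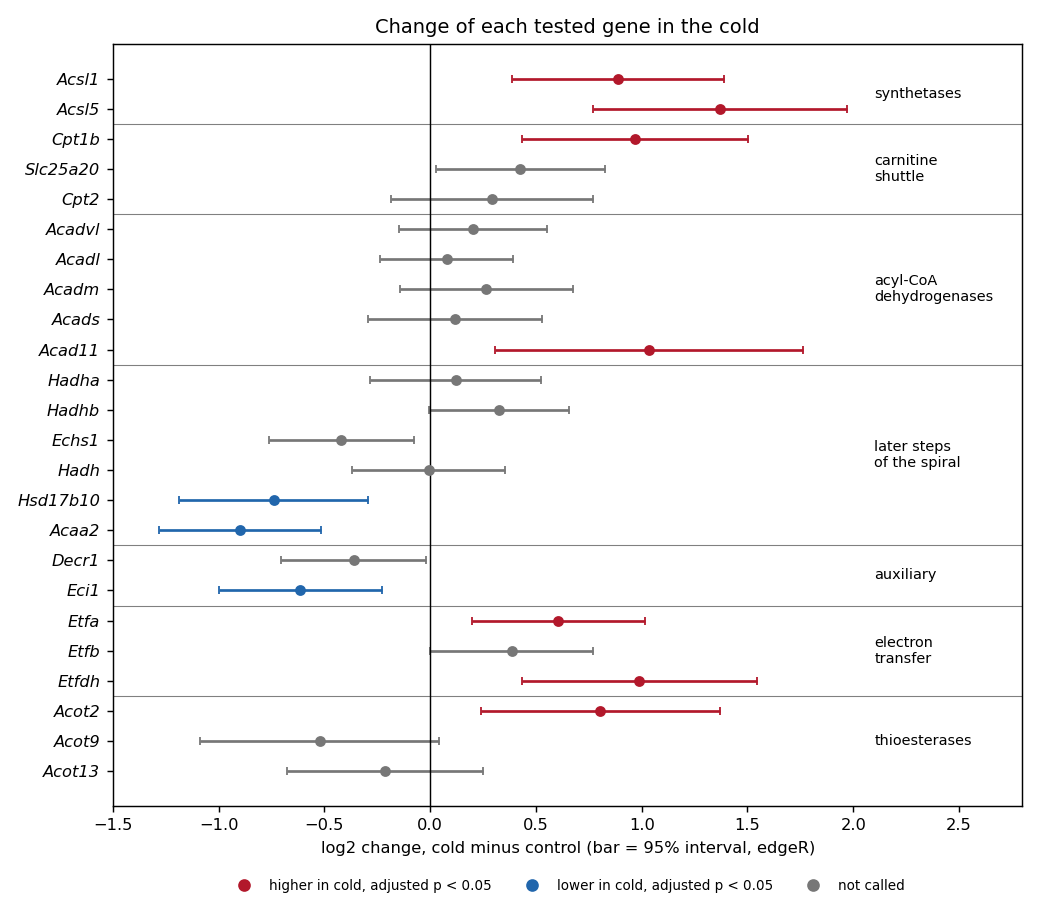
Log2 change, cold minus control, of the 24 tested genes with 95% intervals from edgeR, grouped by role. The 7 called rises are in the synthetases, the carnitine shuttle, Acad11, electron transfer and Acot2, and the 3 called falls are in the later steps and the auxiliary enzymes.

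The 2 long-chain acyl-CoA synthetases of the list both rose. Acsl5 (chr19:55251938-55297720, plus strand, GRCm38), a synthetase of mitochondria and the endoplasmic reticulum, had 514, 454 and 345 CPM in cold libraries 4, 11 and 15, against 107, 208 and 195 CPM in control libraries 2, 9 and 14. The lowest cold library was thus well above the highest control library. Its log2 change was 1.37 ± 0.27 (SE), 2.58-fold, with an adjusted p of 0.00313 in edgeR. Acsl1 (chr8:46471037-46536051, plus strand), the main synthetase that feeds oxidation in fat and heart, had 81.2, 85.7 and 76.4 CPM in cold libraries and 35.7, 41.1 and 54.6 CPM in control libraries. The cold libraries were close to each other and the control libraries were not, and the groups did not overlap. Its log2 change was 0.89 ± 0.23, with an edgeR adjusted p of 0.0123.

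In the carnitine shuttle the entry enzyme rose and the 2 downstream proteins were not called. Cpt1b (chr15:89416405-89425863, minus strand), the muscle and brown fat form of the outer-membrane carnitine palmitoyltransferase, had 41.3, 49.3 and 39.9 CPM in cold libraries and 17.8, 24.7 and 24.6 CPM in control libraries. The skeletal muscle marker sums were 182, 2820 and 12967 CPM in cold libraries 4, 11 and 15, and 122, 540.5 and 946 CPM in control libraries 2, 9 and 14. The log2 change of Cpt1b was 0.97 ± 0.24, with an edgeR adjusted p of 0.0109, and without cold libraries 11 and 15 it was 0.94 and not called. The part of muscle RNA in the change was not tested. Gm44502, an overlapping gene on the same strand with an identical stretch, took 35 reads beside the 491 of Cpt1b, so the split between them is uncertain. Cpt1a, the liver form of the same enzyme, had 1, 1 and 0 reads in cold libraries and 0 in each control library, which is under the floor of 3 reads in every library.

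Slc25a20, the carrier that exchanges acylcarnitine for carnitine across the inner membrane, averaged 1004 ± 105 CPM in cold and 747 ± 133 CPM in control libraries (SD, n = 3 each). Control library 14, at 900.0 CPM, lay above cold library 15, at 883 CPM, and the log2 change of 0.43 ± 0.18 had an edgeR adjusted p of 0.0949. Cpt2, which returns the acyl group to coenzyme A in the matrix, averaged 176 ± 25.3 CPM in cold and 144 ± 25.3 CPM in control libraries, with a log2 change of 0.29 ± 0.22 and an adjusted p of 0.325. Slc22a5, which brings carnitine into the cell, had 3 reads in all, every one in cold library 11.

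Of the 8 acyl-CoA dehydrogenases, which take the first electrons from the chain, 5 were tested and only Acad11 was called. Acadvl, for very long chains, averaged 10193 ± 538 CPM in cold and 8859 ± 1790 CPM in control libraries, and its log2 change of 0.20 had a 95% interval of -0.15 to 0.55. Acadl, for long chains, had a log2 change of 0.08 with an interval of -0.24 to 0.39. Acadm, for medium chains, averaged 408 ± 35.9 CPM in cold and 339 ± 47.1 CPM in control libraries, with a log2 change of 0.27 and an interval of -0.14 to 0.68. The intervals leave room for rises of up to about 0.4 to 0.7 on the log2 scale in these 3 genes. Dvl2, on the opposite strand, overlaps Acadvl and had 273 reads in all, against 131305 for Acadvl.

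Acad11 (chr9:104063377-104127725, plus strand), a further member of the dehydrogenase family, had 20.5, 25.2 and 12.2 CPM in cold libraries, against 8.11, 9.25 and 10.8 CPM in control libraries. Cold library 15 was near the control libraries, and the gene had 216 reads in all. Its log2 change was 1.04 ± 0.33, with an edgeR adjusted p of 0.0329. The call was lost without cold library 4, without cold library 11 or without any one of the control libraries, where the log2 change ran from 0.81 to 1.13 and the adjusted p from 0.0609 to 0.124. Acad9, a dehydrogenase that also serves the assembly of respiratory complex I, had 2, 1 and 2 reads in cold libraries and 0 in each control library. Acad10 had 1 read in cold libraries and 0 in control libraries, and Acad12 had 1 read in each group.

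Acads, for short chains, had 217, 233 and 240.5 CPM in cold libraries and 189, 214 and 233 CPM in control libraries, and its log2 change of 0.12 had an interval of -0.30 to 0.53. Its reads divide between a coding transcript and one that keeps an intron of 212 nt (chr5:115112028-115112239, minus strand, GRCm38). The intron is shown because it separates the 2 transcripts and carries a stop codon in frame with the exon before it, given in capitals.
Acads retained intron: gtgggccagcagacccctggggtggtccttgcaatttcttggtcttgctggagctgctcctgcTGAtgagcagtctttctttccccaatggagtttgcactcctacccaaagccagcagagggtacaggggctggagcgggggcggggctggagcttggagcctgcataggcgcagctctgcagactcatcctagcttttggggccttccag
Read from the start codon of the coding transcript, the stop begins at base 64 of the intron and leaves 687 coding bases, against 1236 in the coding transcript. The transcript with the intron held 40.8%, 44.7% and 38.1% of the gene's reads in cold libraries, against 34.7%, 34.1% and 35.0% in control libraries. The groups did not overlap, but the test of transcript usage did not call the gene (Simes p over its transcripts 0.662, edgeR).

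The later steps of the spiral held 2 called falls and no called rise among 6 tested genes. Among all tested genes 15.1% were called lower and 18.1% higher. Acaa2, the thiolase of the matrix, had 378, 330.0 and 332 CPM in cold libraries, against 608, 614 and 717 CPM in control libraries. Every cold library was far below every control library, and the difference was -0.90 ± 0.17 on the log2 scale, with an edgeR adjusted p of 0.00265. Echs1, the short-chain enoyl-CoA hydratase, had 930, 1031 and 855 CPM in cold libraries and 1200, 1229 and 1338 CPM in control libraries. The groups did not overlap, but its log2 change of -0.42 ± 0.16 had an adjusted p of 0.0587 and was not called. Paox, on the opposite strand, overlaps Echs1 and had 121 reads, against 14125 for Echs1.

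Hadha and Hadhb encode the 2 subunits of the trifunctional protein, which carries out the last 3 steps on long chains. Hadha averaged 658 ± 34.0 CPM in cold and 605 ± 109 CPM in control libraries, with a log2 change of 0.12 and an interval of -0.28 to 0.52. Hadhb had 3799, 3951 and 3786 CPM in cold libraries and 2624, 3008 and 3574 CPM in control libraries, so that the groups did not overlap, with a log2 change of 0.33 ± 0.15 and an adjusted p of 0.119. The number of Hadhb reads per Hadha read was 5.89, 5.68 and 5.99 in cold libraries, against 5.42, 4.73 and 5.14 in control libraries. These ratios did not overlap between the groups either, and their log2 difference of 0.20 had an exact two-sided permutation p of 0.1, the smallest that 3 against 3 libraries can give. The 2 genes start back to back, and the 85 bases between their starts (chr5:30155163-30155247, plus strand, GRCm38.p6, RefSeq) are shown because both genes share them as upstream sequence, with matches to GGGCGG in capitals.
Hadha-Hadhb gap: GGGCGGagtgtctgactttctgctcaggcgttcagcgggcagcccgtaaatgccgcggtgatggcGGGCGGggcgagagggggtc
The stretch is 69.4% G and C and holds 2 such matches, which do not overlap; 22.8% of 32851 RefSeq promoters hold at least 1, on either strand, in the same length before the start.

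Hadh, the hydroxyacyl-CoA dehydrogenase for medium and short chains, averaged 2669 ± 453 CPM in cold and 2682 ± 249.5 CPM in control libraries, with a log2 change of -0.01 and an interval of -0.37 to 0.36. Hsd17b10 (chrX:152001845-152004442, plus strand), which acts on short and branched chains and is also a subunit of mitochondrial ribonuclease P, had 77.9, 63.9 and 83.7 CPM in cold libraries. In control libraries it had 123, 118 and 136 CPM, above every cold library. The log2 change was -0.74 ± 0.20, with an edgeR adjusted p of 0.0172, and without cold library 11 it was -0.63 with an adjusted p of 0.0858. Its transcript with the most reads differs from the next by a segment of 30 coding bases (chrX:152003623-152003652, plus strand, GRCm38), shown in capitals throughout because all of it separates the 2 forms.
Hsd17b10 segment: ATCCTACATCATGGTTCTACCATCCTCCAG
The segment keeps the reading frame, with 813 coding bases in the longer form and 783 in the shorter. The longer form held 57.3%, 59.1% and 57.9% of the gene's reads in cold libraries and 64.8%, 61.7% and 63.7% in control libraries. These shares did not overlap, and the usage test gave a Simes p of 0.729 (edgeR).

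Both listed auxiliary enzymes of unsaturated chains lay lower in every cold library than in any control library, and 1 of the 2 was called. Such a separation was found in 21.8% of all tested genes, and 15.1% were called lower. Of the auxiliary isomerases outside the list, given below, Ech1 was called lower and Eci2 higher, with log2 changes of -0.45 and 0.79. Eci1 (chr17:24426641-24439348, plus strand), an enoyl-CoA isomerase, had 424, 415 and 382 CPM in cold libraries, against 702, 547 and 620 CPM in control libraries, which is a clear gap. Its log2 change was -0.61 ± 0.17, with an edgeR adjusted p of 0.0200. Leaving out any one of the cold libraries ended the call, with a log2 change of -0.67 to -0.57 and an adjusted p of 0.0633 to 0.0686. Decr1, the dienoyl-CoA reductase, averaged 1617 ± 171 CPM in cold and 2078 ± 228 CPM in control libraries, with a log2 change of -0.36 ± 0.16 and an adjusted p of 0.0971.

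The electron transfer proteins lay higher in every cold library than in any control library, for all 3 genes, and 2 were called. The same separation held for 26% of all tested genes, and 18.1% were called higher. Etfdh (chr3:79603788-79629500, minus strand), the membrane oxidoreductase that hands the electrons to ubiquinone, had 282, 292 and 270 CPM in cold libraries, against 122, 103 and 199 CPM in control libraries. The cold libraries were close together, and control library 14 lay nearest to them. Etfdh changed by 0.99 ± 0.25 on the log2 scale, with an edgeR adjusted p of 0.0121. Etfb, the small subunit of the soluble flavoprotein, averaged 5219 ± 536 CPM in cold and 3996 ± 852 CPM in control libraries, with a log2 change of 0.38 ± 0.18 and an adjusted p of 0.115. Gm45233, on the same strand with an identical stretch, took 244 reads beside the 65864 of Etfb.

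Etfa (chr9:55454508-55512243, minus strand), the large subunit, had 455, 494 and 539 CPM in cold libraries, against 314, 285 and 377 CPM in control libraries, with no overlap. The log2 change was 0.61 ± 0.19, with an edgeR adjusted p of 0.0277. The call was lost without any one of the cold libraries or without control library 9, where the log2 change ran from 0.49 to 0.64 and the adjusted p from 0.0680 to 0.107. The RefSeq promoter of Etfa (GRCm38.p6, chr9:55512278-55512350, minus strand) is shown because this called gene carries a near match, in capitals, to 2 copies of AGGTCA with any 1 base between them, the repeat that PPAR receptors are known to bind.
Etfa promoter: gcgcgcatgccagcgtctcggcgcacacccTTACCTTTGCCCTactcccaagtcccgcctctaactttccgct
The match lies on the strand opposite to the gene, from -77 to -65 relative to the start, with 2 mismatches over the 12 compared bases. At up to 2 mismatches, on either strand, from 250 bases before to 50 after the start, a match stood in 3 of the 27 listed genes with a promoter entry, Echs1, Etfa and Slc25a20, which is 11.1%. The same search found one in 1190 of 27025 genes, 4.40%, and no listed gene had an exact match.

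Among the thioesterases, which split acyl-CoA back to a free fatty acid, 1 of 3 tested genes rose. Acot2 (chr12:83987861-83993873, plus strand), the matrix enzyme for long chains, had 53.7, 53.0 and 68.9 CPM in cold libraries, against 42.7, 24.7 and 31.8 CPM in control libraries. The groups did not overlap, with control library 2 nearest to the cold ones. The log2 change was 0.80 ± 0.26, with an edgeR adjusted p of 0.0328. Leaving out any one of the cold libraries, control library 9 or control library 14 ended the call, with a log2 change of 0.61 to 0.88 and an adjusted p of 0.0569 to 0.122. The cytosolic paralogue Acot1 matches Acot2 at 95.1% identity and had 7, 11 and 5 reads in cold libraries and 3, 1 and 6 in control libraries, so reads could be split between the 2 genes. Acot13 averaged 117 ± 16.9 CPM in cold and 135 ± 19.1 CPM in control libraries, with a log2 change of -0.21 and an adjusted p of 0.469.

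Acot11, known as brown fat inducible thioesterase, had 14, 10 and 6 reads in cold libraries and 4, 4 and 4 in control libraries, where the cold libraries held 1.93 times the reads of the control libraries in total. At 1.98 to 4.70 CPM in cold and 2.16 to 4.11 CPM in control libraries, its ranges overlapped. Them4, also a mitochondrial thioesterase, had 4, 11 and 9 reads in cold libraries and 0, 2 and 0 in control libraries, where 3 reads is the floor. Cpt1a, Slc22a5, Acad9, Acad10, Acad12, Acot1, Acot11 and Them4 fell under the count filter. Without the filter edgeR called 0 of the 8, with Them4 alone at an unadjusted p under 0.05 (adjusted p 0.0773), and DESeq2 gave an adjusted p for only Acot1 and Acot11, 0.915 and 0.893.

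Acot9, a mitochondrial thioesterase, had 11.7, 15.6 and 12.5 CPM in cold libraries and 18.9, 15.4 and 22.2 CPM in control libraries, with a log2 change of -0.52 ± 0.26 and an adjusted p of 0.140. Its 207 reads divide almost evenly between a coding transcript and one annotated as a target of nonsense-mediated decay. The second takes in a further exon of 58 nt (chrX:155264036-155264093, plus strand, GRCm38), shown because it shifts the reading frame.
Acot9 added exon: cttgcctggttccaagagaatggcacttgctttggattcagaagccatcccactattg
With it the frame meets a TGA 73 bases past the exon's end, after 150 coding bases, against 1317 in the coding transcript. The decay-annotated transcript held 40.0%, 40.4% and 47.4% of the gene's reads in cold libraries, against 51.4%, 66.7% and 56.8% in control libraries, where control library 9 had only 15 reads of the gene. The usage test gave a Simes p of 0.319 and a gene-level F p of 0.0493 (edgeR, unadjusted), with an adjusted F p of 0.483.

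Across the 11 genes of the list with at least 2 transcripts under test, no change in transcript usage was called, by the Simes or the F test of edgeR. At an unadjusted p under 0.05 there were 0 by Simes and 1 by F, and over all 539 genes tested for usage 1.67% were called by Simes and 2.23% by F. In 6 of the 11, namely Hadhb, Eci1, Etfdh, Acads, Hsd17b10 and Acot9, the share of the most-read transcript did not overlap between the groups, against 20.8% of all 539 genes. The shorter of 2 coding Etfdh transcripts, with 1668 coding bases against 1848, held 29.2%, 29.5% and 31.0% of the gene's reads in cold libraries and 18.7%, 18.0% and 25.9% in control libraries. The Etfdh Simes p was 0.473. The 3 main Hadhb transcripts have the same coding length of 1425 bases and differ before the start codon. The most-read of them held 69.6%, 70.0% and 68.8% of Hadhb reads in cold libraries and 66.8%, 65.2% and 67.9% in control libraries. In all, reads fell on 93 transcripts of the 32 genes, the most-read transcript was protein coding for every gene, and in 19 of the 24 tested genes it held over 90% of the reads.

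**Figure D3:**
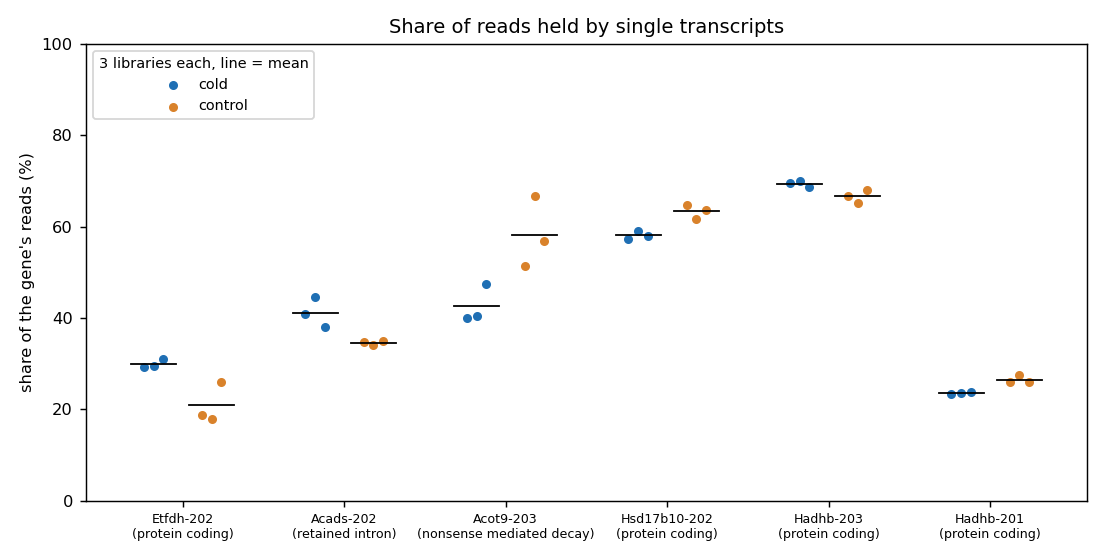
Percent of a gene's reads held by the named transcript, with 1 point per library, 3 cold and 3 control, and a line at each group's mean. The shorter Etfdh transcript averaged 29.9% in cold and 20.9% in control libraries, and the intron-retaining Acads transcript averaged 41.2% in cold and 34.6% in control libraries, while no change in usage was called.

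Ratios of reads between genes of the pathway were compared within each library, where with 3 against 3 libraries none could reach an adjusted p under 0.05. Of 8 ratios within the pathway, compared by exact two-sided permutation tests with a smallest possible p of 0.1, the largest difference was between the 2 thiolase genes. There were 0.0995, 0.0836 and 0.0878 Acaa2 reads per Hadhb read in cold libraries, against 0.232, 0.204 and 0.201 in control libraries. On the log2 scale the difference was -1.23, with a p of 0.1, or 0.32 after adjustment over the 8 ratios. Etfdh reads per Etfa read were 0.620, 0.591 and 0.501 in cold libraries and 0.388, 0.362 and 0.528 in control libraries, and Etfb reads per Etfa read were 11.3, 9.58 and 10.8 in cold libraries and 14.1, 10.6 and 12.0 in control libraries. Both overlapped, with p of 0.2 and 0.3. Acsl5 reads per Acsl1 read were 6.32, 5.29 and 4.5 in cold libraries and 2.97, 5.00 and 3.56 in control libraries, and overlapped as well, with a p of 0.2. The ratios Acadl to Acadvl, Acadm to Acadvl and Hadh to Hadha differed by -0.15, 0.05 and -0.15 on the log2 scale, with p of 0.2, 0.8 and 0.6.

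The changes went with transcript length. Of the 9 tested genes in the longest of 3 equal length classes of all tested genes, with a mean annotated length of at least 2163 nt, 6 were called higher and none lower, with a median log2 change of 0.89. The 4 in the shortest class, up to 1301 nt, had a median of -0.41, with 2 called lower. Over all tested genes the medians were 0.24 in the longest and -0.17 in the shortest class. Spearman's rho between log2 change and length was 0.59 across the 24 genes and 0.19 across all 2093, as a description, since genes share their libraries. With a length offset fitted in each library, 6 genes of the list were called higher and 5 lower. The part of length in the calls was otherwise not tested.

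Other genes around the pathway were followed through a list of 59, of which 45 had reads and 23 were tested. Of these, 6 did not pass the filter on the control libraries alone. In this list 10 were called higher and 1 lower, 47.8% of those tested beside 33.2% of all tested genes, with a median log2 change of 0.60 beside 0.04, and 12 were not called. Of the 6 that did not pass on the control libraries alone, Klf15, Slc27a2 and Flad1 were called higher and the others were not called. The cold libraries helped these 6 into the test, and the list was chosen with earlier results of these data known. The counts, shares and median of this list are therefore a description. The 6 tested regulators and genes of malonyl-CoA control held 4 of the calls, Klf15 included. Pdk4, the kinase that shuts pyruvate dehydrogenase and so favours fat over glucose, had 193, 239 and 129.8 CPM in cold libraries, against 34.1, 29.8 and 69.0 CPM in control libraries, with no overlap. Its log2 change was 2.07 ± 0.34, with an edgeR adjusted p of 0.00112. Mlycd, which breaks down malonyl-CoA, the inhibitor of Cpt1, had 47.7, 51.3 and 55.0 CPM in cold libraries and 14.6, 13.4 and 19.8 CPM in control libraries, well apart. Its log2 change was 1.67 ± 0.25, with an adjusted p of 0.000558. Sirt3, a mitochondrial deacetylase, had a log2 change of 1.17 ± 0.25 and an adjusted p of 0.00437. Psmd13 overlaps Sirt3 on the opposite strand and had 801 reads.

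Klf15, a transcription factor of fasting metabolism, had 24.2, 36.4 and 6.59 CPM in cold libraries and 1.62, 2.05 and 0 CPM in control libraries, which are at or under the floor of 3 reads. It passed the filter only through the cold libraries, so its values are given as a description, and its call was lost without control library 2, with an adjusted p of 0.103. Ppargc1a, the coactivator of mitochondrial genes, had 0, 4 and 6 reads in cold libraries and 0 in each control library, and the receptor Ppara had 4, 1 and 5 reads in cold and 2, 1 and 3 in control libraries. Neither was tested.

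Acot8, a peroxisomal thioesterase, had 68.1, 73.8 and 71.2 CPM in cold libraries, against 13.0, 15.4 and 13.8 CPM in control libraries. Both groups were tight and far apart, with a log2 change of 2.34 ± 0.23 and an edgeR adjusted p of 5.3e-05. Mcee, the epimerase of the propionyl-CoA branch that odd chains end in, had a log2 change of 1.56 ± 0.25 and an adjusted p of 0.000966. Crat, the carnitine acetyltransferase, rose by 0.81 ± 0.20 on the log2 scale, with an adjusted p of 0.010. Slc27a2, a synthetase for very long chains, had 12.1, 8.94 and 9.55 CPM in cold libraries and 1.62, 1.03 and 0.600 CPM in control libraries, where 3 reads is again the floor, and it too passed the filter only through the cold libraries.

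Eci2, an isomerase, rose by 0.79 ± 0.23 on the log2 scale, with an edgeR adjusted p of 0.0236, and its call was lost without cold library 11 or control library 9, with adjusted p of 0.0960 and 0.0930. Flad1, the FAD synthase, which passed the filter only through the cold libraries, had 9.06, 11.9 and 9.88 CPM in cold libraries and 1.62, 5.14 and 6.00 CPM in control libraries. Its call was lost without any one library except control library 14, with adjusted p of 0.0518 to 0.131. Ech1, the dienoyl-CoA isomerase, had 1603, 1712 and 1413 CPM in cold libraries and 2213, 2127 and 2129 CPM in control libraries, with a log2 change of -0.45 ± 0.14 and an adjusted p of 0.0332. The call of Ech1 was lost without any library but control library 2, with adjusted p of 0.0542 to 0.132.

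**Figure D4:**
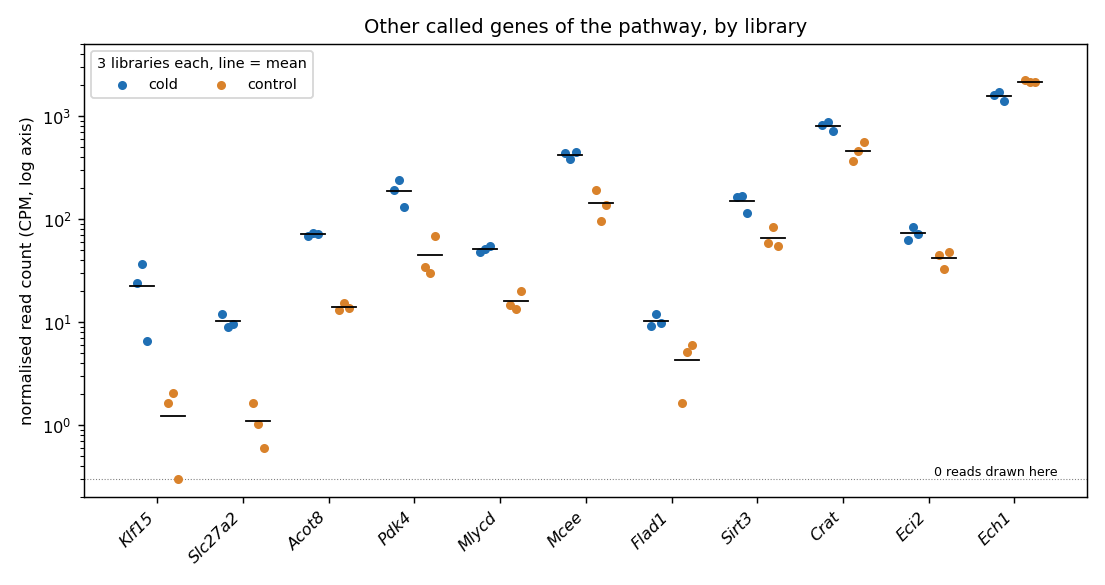
Normalised read count in CPM on a log axis for the 11 called genes of the second list, with 1 point per library, 3 cold and 3 control, and a line at each group's mean. The 10 genes called higher in the cold include Klf15, which is at 0 CPM in control library 14 (drawn at the bottom of the plot), and the 1 called lower is Ech1.

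How far each call rests on single libraries or settings differed between the genes. Acsl5 was called higher in each of the 17 alternative settings, with a log2 change of 1.05 to 1.66. Etfdh, Cpt1b and Acaa2 were called in all but the setting without cold libraries 11 and 15, chosen after seeing the skeletal muscle marker sums, in which their log2 changes were 1.04, 0.94 and -0.73. Acsl1 also lost its call on flow cell 1 alone, at 0.68 with an adjusted p of 0.0711. Acad11 and Acot2 were not called by DESeq2, with adjusted p of 0.0977 and 0.0504, on flow cell 1 alone or with length offsets. After thinning to equal depth Acad11 and Etfa were not called, with an adjusted p of 0.0552 for Etfa. Hsd17b10 and Eci1 were not called without a count filter, with adjusted p of 0.156 and 0.181. The setting without cold libraries 11 and 15 leaves a single cold library, assumed to vary like the others, and calls 321 genes in place of 695.

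**Figure D5:**
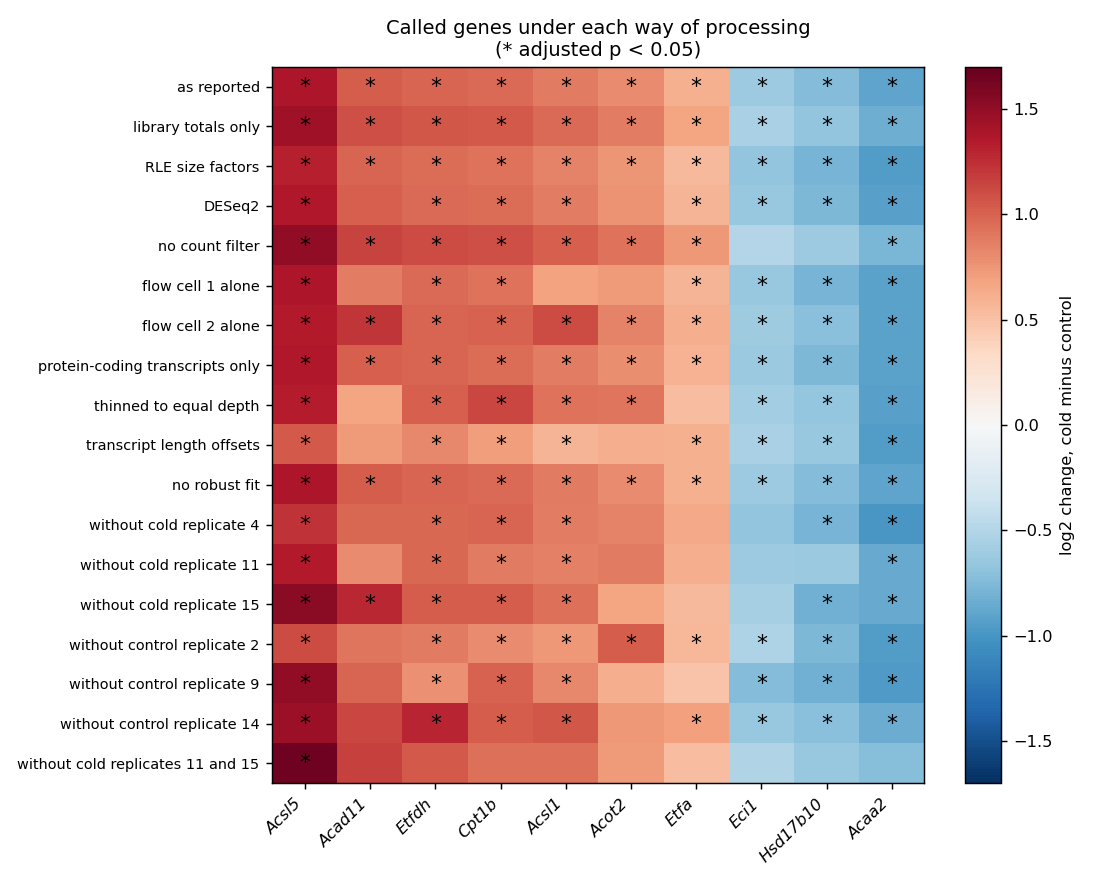
Log2 change, cold minus control, of the 10 called genes as a colour scale, with a column for each gene and a row for each setting, the reported one on top, and a star where the edgeR or DESeq2 adjusted p is under 0.05. Acsl5 keeps its star throughout, while Acad11, Acot2 and Etfa lose theirs in many rows.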

How the data were processed

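The deposited values are raw counts of reads for each Ensembl transcript, 1 file per flow cell, which the authors left unnormalized, as the whole numbers in the files show. The submitters' processing notes name minimap2, without a version, and GRCm38; the rule that assigned reads to transcripts is not given in those sources. Per the labels' protocols, poly(A) RNA was turned into TeloPrime cDNA and amplified without molecular identifiers. Counts of the 12 files were added up per library, over its 2 flow cells, and joined to genes through GENCODE M21 (14671 of 14693 transcripts matched). The 6 libraries were the replicates, and mice were told apart by their labelled numbers.

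Genes were filtered with filterByExpr (minimum count 10, about 4.19 CPM), scaled by TMM and compared in edgeR 4.0.16 (R 4.3.3) by the quasi-likelihood test with Benjamini-Hochberg adjustment. Transcript usage was tested with diffSpliceDGE. DESeq2 1.42.0, other scalings and filters, each flow cell, thinning, length offsets and leaving out each library were alternatives. Near copies were sought with blastn 2.17.0. On simulated data with 2018 genes, all genes changed by 2 on the log2 scale were called, and 41.3% to 46.0% of those changed by 1; 6.08% of calls were unchanged genes.

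All 32 genes are named, with values in each library for those called and reads for those untested; of the second list the called genes are named, and Ppargc1a and Ppara were added after their values were seen. The genes and lists were chosen with earlier results of these data known, and 1 further pathway gene was left out of the second list and is not reported here.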

Additional observations from a re-analysis of the deposited data

How the results depend on the processing

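The count of listed genes called higher, 7, was 4 on flow cell 1 alone, 1 without cold libraries 11 and 15 (chosen after seeing the data), and 4 to 6 with any one library left out. The count called lower, 3, was 1 with no count filter, 5 with length offsets, 0 without cold libraries 11 and 15, and 1 to 5 with one library left out. In the second list the 10 higher became 6 on flow cell 2 alone, and 8 to 10 with one library left out. On flow cell 2 only Eci2 was tested and lost its call. Klf15, Slc27a2 and Flad1 had values in 14, 15 and 15 of the 17 settings, so a lower count can also mean genes that were not tested. Its 1 lower became 0 with library totals only or without cold libraries 11 and 15, 2 with DESeq2, 3 with length offsets, and 0 to 4 with one library left out. No usage change was called in any setting.

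Of the uncalled genes, Acadl was at -0.057 with length offsets and -0.011 to 0.15 with one library left out. Acads was at -0.049 with protein-coding transcripts only and -0.016 with length offsets. Hadha was at -0.20 with length offsets and -0.029 to 0.21 with one library left out. Hadh was at 0.062 with library totals only, 0.12 with no count filter, 0.021 on flow cell 2 alone, 0.024 with thinning, 0.12 without cold libraries 11 and 15, and -0.10 to 0.13 with one library left out. The log2 ratio of Acadm to Acadvl ran from -0.058 to 0.18 with one library left out. Echs1 was called lower with DESeq2-type (RLE) scaling (-0.47), with length offsets (-0.49) and in 2 further settings. Decr1 was called lower with length offsets and without control library 2. Etfb was called higher with no count filter and with length offsets, at a log2 change of at most 0.51. Without a count filter the median of all genes shifted by 0.12. The cause of these differences was not tested. No paired analysis was possible because no mouse number occurs in both groups. Depth limits the 8 genes under the count filter, of which all but Acot11 had fewer than 3 reads in at least 1 control library.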
